A study of Mus musculus with 7 samples.

Results

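The tumour necrosis factor (TNF) receptor superfamily genes known from T cells were examined for Runx3 binding and for the enhancer mark H3K4me1 in mouse CD8-positive T cells (CD8-TC). The 9 genes were Tnfrsf1a, Tnfrsf1b, Tnfrsf4, Tnfrsf9, Tnfrsf14, Tnfrsf18, Tnfrsf25, Cd27 and Fas, taken as a given list of the 22350 protein-coding genes of the GENCODE annotation of NCBIM37 (mm9). A called region was assigned to a gene when its midpoint lay in the gene body or within 20 kb of it, a stretch called the window of that gene below. By this rule 10 of the 4934 Runx3-bound regions and 86 of the 76705 H3K4me1-marked regions belonged to the 9 genes.

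Receptors of this family bind trimeric ligands of the TNF family through cysteine-rich repeats outside the cell. Most of them recruit adaptor proteins called TRAFs, which switch on NF-kB and kinase signalling and give T cells a costimulatory signal. A smaller group carries a death domain in the cytoplasm, through which adaptors such as Fadd and Tradd can start caspase-driven cell death. Naive T cells already carry CD27 and HVEM (Tnfrsf14), whereas OX40 (Tnfrsf4) and CD137 (Tnfrsf9) come up mainly after antigen contact. Runx3 is the RUNX transcription factor that CD8-TC use in lineage choice and effector function, and monomethylation of histone H3 at lysine 4 marks enhancers and the flanks of active promoters.

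The cells came from spleens of wild-type mice of the outbred ICR strain, with no allele changed and no treatment given. The age of the mice is not stated in the sources used here. Freshly isolated cells, defined in the study as resting, were taken by positive selection with magnetic beads against CD8 to a purity over 95%. The record of each library states 18 mice. The 7 libraries comprised 3 for Runx3 from 2 biological repeats (in-house polyclonal antibody), 2 for H3K4me1 (monoclonal antibody) and 2 for non-immune rabbit serum (NIS). The authors joined the reads of the repeats before they called peaks against NIS, so each antibody gave 1 list of positions with neither score nor read count. Replicate error therefore could not be derived for any value, the lists say nothing of the reads under any 1 region, and a gene without a called region cannot be told apart from one whose signal stayed under the calling threshold. The values are descriptions, and the 95% Wilson intervals cover counting error alone. Neighbouring genes that share regions are not independent.

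The label of the cells was compared with marker genes. Over all protein-coding genes, 19.8% had a Runx3-bound region in the window, and H3K4me1 covered a median of 5.75% of the window. The CD8-TC markers held 17 distinct Runx3-bound regions, some of them shared by neighbouring genes. All 8 CD8-TC markers (Cd8a, Cd8b1, Cd3d, Cd3e, Cd3g, Lck, Cd2 and Cd5) had a Runx3-bound region in the window, and H3K4me1 covered 29.4 to 68.1% of their windows, with a median of 39.9%. Among B-cell markers 3 of 5 had a Runx3-bound region, and the cover ranged from 14.7 to 41.2%, with a median of 19.9%. Among myeloid markers 1 of 5 had one, Itgam with 31.2% cover, and the median cover was 9.40%, with Lyz2 at 0. The 3 erythroid markers had none and a median cover of 8.24%. Of the NK-cell markers, Ncr1 was at 0 for both and Klrb1c had 23.5% cover without Runx3. The part of B and myeloid cells in the results below was not tested.

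Sequences that carry the binding results are given first. Each line holds the 200 bp around the midpoint of a Runx3-bound region (plus strand of mm9, 5′ to 3′), with matches to the RUNX motif in capitals. These 5 windows were chosen because they hold a RUNX motif near the midpoint and lie outside annotated exons. The motif was searched on both strands as TGTGGT or TGTGGC or TGCGGT or TGCGGC, so that ACCACA and GCCACA are matches on the minus strand. The windows lie in the Tnfrsf1b intron (chr4:144825969-144826168), in an intron of Sdf4 upstream of Tnfrsf4 (chr4:155378199-155378398), between Tnfrsf4 and Tnfrsf18 (chr4:155396371-155396570), in a Tnfrsf9 intron (chr4:150298478-150298677) and upstream of Tnfrsf14 (chr4:154310789-154310988).
Tnfrsf1b intron: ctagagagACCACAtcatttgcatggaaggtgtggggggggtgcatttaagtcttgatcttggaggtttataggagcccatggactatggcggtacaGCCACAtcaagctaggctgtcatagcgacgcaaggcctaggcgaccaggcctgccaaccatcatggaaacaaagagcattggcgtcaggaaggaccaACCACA
Tnfrsf4 upstream: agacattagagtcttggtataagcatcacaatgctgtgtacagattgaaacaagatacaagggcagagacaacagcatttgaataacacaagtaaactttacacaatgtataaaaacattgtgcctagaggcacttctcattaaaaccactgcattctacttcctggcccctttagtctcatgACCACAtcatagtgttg
Tnfrsf4 to Tnfrsf18: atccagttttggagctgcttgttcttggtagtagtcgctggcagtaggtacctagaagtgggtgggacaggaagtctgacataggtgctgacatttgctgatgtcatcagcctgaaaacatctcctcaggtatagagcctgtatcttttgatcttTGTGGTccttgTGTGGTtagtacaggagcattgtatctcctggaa
Tnfrsf9 intron: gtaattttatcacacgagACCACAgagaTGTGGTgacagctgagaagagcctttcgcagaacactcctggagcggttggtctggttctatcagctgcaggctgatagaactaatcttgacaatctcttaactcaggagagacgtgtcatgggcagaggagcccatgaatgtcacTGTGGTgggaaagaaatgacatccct
Tnfrsf14 upstream: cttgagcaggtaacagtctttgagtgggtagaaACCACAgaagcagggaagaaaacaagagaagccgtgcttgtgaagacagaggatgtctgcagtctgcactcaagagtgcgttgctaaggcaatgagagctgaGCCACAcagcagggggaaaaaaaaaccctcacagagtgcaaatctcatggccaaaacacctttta

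The Runx3-bound region over the Cd27 start is shown only for the 104 bases before the transcription start site (TSS), at chr6:125187029-125187132. The gene lies on the minus strand, and the sequence is again the plus strand, so the TSS lies just before its first base.
Cd27 promoter: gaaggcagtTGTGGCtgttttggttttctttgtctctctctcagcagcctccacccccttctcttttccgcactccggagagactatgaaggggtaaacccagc
The TGTGGC match in it, at chr6:125187038-125187043, began 10 bp upstream of the TSS.

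Runx3 bound 7 of the 9 genes (77.8%, interval 45.3 to 93.7%), against 19.8% of all protein-coding genes by the same rule. Cd27 had 3 Runx3-bound regions, Tnfrsf4 and Tnfrsf9 had 2 each, and Tnfrsf1b, Tnfrsf14, Tnfrsf18 and Fas had 1 each. Tnfrsf1a and Tnfrsf25 had none. At least 2 regions were found for 3 of 9 genes (interval 12.1 to 64.6%), against 4.67% of all genes, and at least 3 regions, as for Cd27, for 1.35% of all genes. Binding within the gene body was found for 3 of 9 genes as well (Tnfrsf1b, Tnfrsf9 and Fas), against 8.51% of all genes. These 3 were the longest of the 9 genes (33408, 31541 and 37112 bp), and gene length was not matched. The joined windows of the 9 genes spanned 465.2 kb and held 2.15 Runx3-bound regions per 100 kb, whereas the joined windows of all protein-coding genes held 0.264 per 100 kb. The median window of the 9 genes (46354 bp) was shorter than that of all genes (55427.5 bp).

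**Figure D1:**
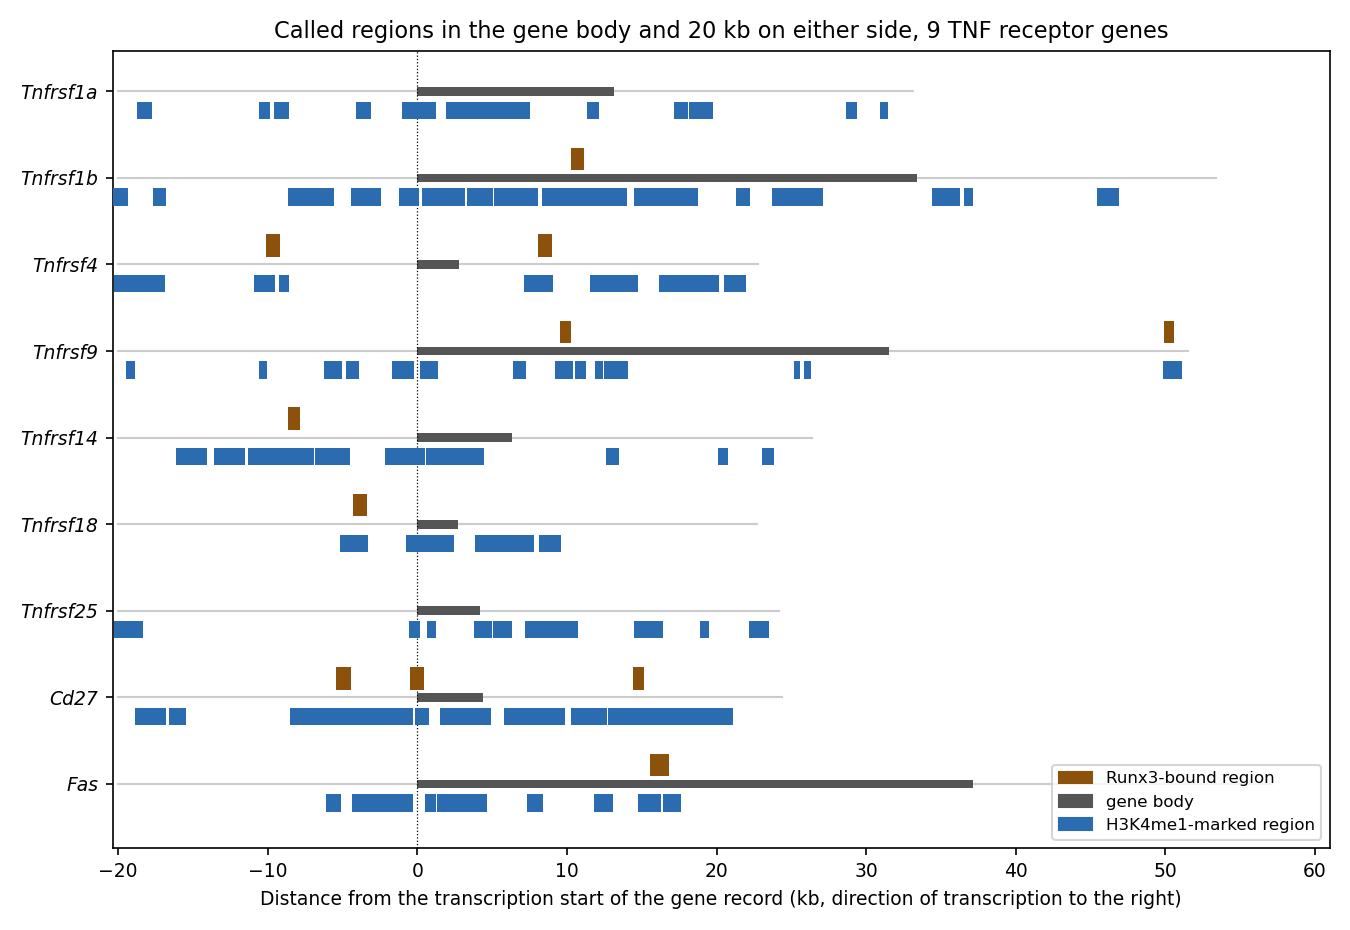
Called regions at the 9 genes by distance from the transcription start of each gene (kb, transcription to the right). Brown bars are Runx3-bound regions, blue bars H3K4me1-marked regions, dark grey bars gene bodies and light grey lines the windows. Tnfrsf1a and Tnfrsf25 show blue bars alone, and each of the 10 Runx3-bound regions lies above a blue bar.

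Cd27, the receptor for CD70 that costimulates naive and memory T cells, lies at chr6:125182640-125187028 on the minus strand and had the most Runx3-bound regions. The first (chr6:125186551-125187514, 964 bp) sat on the promoter, with its midpoint 4 bp upstream of the TSS. The second (chr6:125191470-125192436, 967 bp) lay 4.93 kb upstream, in an exon of a non-coding transcript of the neighbouring gene Vamp1. The third (chr6:125171858-125172623, 766 bp) lay 14.8 kb downstream of the Cd27 TSS and within an untranslated region of Vamp1, a vesicle fusion protein, whose own start was 6642 bp away and thus closer. Cd27 was the only one of the 9 genes with a Runx3-bound region within 1 kb of the start of its gene record.

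Tnfrsf14 (chr4:154296319-154302672, minus strand) encodes HVEM, a receptor for LIGHT and a ligand of the inhibitory receptor BTLA. Its 1 Runx3-bound region (chr4:154310492-154311285, 794 bp) was intergenic, 8.22 kb upstream of the TSS. No coding gene start was nearer to it than that of Tnfrsf14.

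Tnfrsf4 (chr4:155387952-155390721, plus strand) and Tnfrsf18 (chr4:155400273-155403004, plus strand) are neighbours that encode OX40 and GITR, costimulatory receptors which are also high on regulatory T cells. A single Runx3-bound region (chr4:155396004-155396936, 933 bp) lay between them and was assigned to both. Its midpoint was 8.52 kb downstream of the Tnfrsf4 TSS and 3.80 kb upstream of the Tnfrsf18 TSS, so that Tnfrsf18 was the nearest coding start. The nearest start of any transcript, a non-coding one, was 797 bp away. Tnfrsf4 had a second region (chr4:155377818-155378778, 961 bp) 9.65 kb upstream, in an intron of Sdf4, a calcium-binding protein of the Golgi. Here the nearest coding start was that of Tnfrsf4, and the nearest start of any transcript was 4321 bp away.

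Tnfrsf9 (chr4:150288671-150320211, plus strand) encodes CD137, a costimulatory receptor of activated CD8-TC. Its first Runx3-bound region (chr4:150298229-150298925, 697 bp, the narrowest of the 10) lay in an intron, 9.91 kb downstream of the start of the gene record and 838 bp from an alternative start of the gene. The second (chr4:150338547-150339277, 731 bp) lay 50.2 kb downstream of the start and past the end of the gene. Its midpoint was 68 bp from the start of an annotated copy of the U1 small nuclear RNA, a repeated gene family, and the nearest coding start, that of Uts2, was 32294 bp away. The part of this repeat in the call was not tested.

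Tnfrsf1b (chr4:144803366-144836773, minus strand) encodes TNF receptor 2, the TNF receptor without a death domain. Runx3 bound it in an intron (chr4:144825637-144826500, 864 bp), 10.7 kb downstream of the TSS.

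Of the death domain receptors 1 of 3 was bound, beside 6 of 6 of the other members, a grouping made after the values were seen and not tested. Fas (chr19:34365149-34402260, plus strand), the receptor that triggers apoptosis on contact with Fas ligand, had 1 Runx3-bound region (chr19:34380694-34381963) in an intron, 16.2 kb downstream of the TSS. This region was 1270 bp wide, the widest of the 10, and 3.77% of all Runx3-bound regions were at least as wide. Tnfrsf1a (chr6:125299380-125312502, plus strand), which encodes TNF receptor 1, had its nearest Runx3-bound region 83928 bp away (chr6:125214972-125215933). For Tnfrsf25 (chr4:151490043-151494228, plus strand), the receptor of the ligand TL1A, the nearest lay 34009 bp away (chr4:151527752-151528722) and came in with a margin of 50 kb in place of 20 kb. Over all 7 death domain receptors of the family, 2 had a Runx3-bound region, Fas and the TRAIL receptor Tnfrsf10b, beside 19.8% of all protein-coding genes.

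All 9 genes carried H3K4me1-marked regions in their windows, against 73.6% of all protein-coding genes. The number of marked regions ran from 4 at Tnfrsf18 to 16 at Tnfrsf1b, with a median of 9 against 4 over all genes. H3K4me1 covered a median of 30.8% of the window of these genes, whereas the median over all genes was 5.75%, with quartiles at 0 and 14.3%. Each of the 9 lay above the upper quartile of all genes. In the joined windows the mark covered 157.8 kb or 33.9%, against 6.75% of the joined windows of all protein-coding genes and 4.14% of chromosomes 1 to 19 and X.

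**Figure D2:**
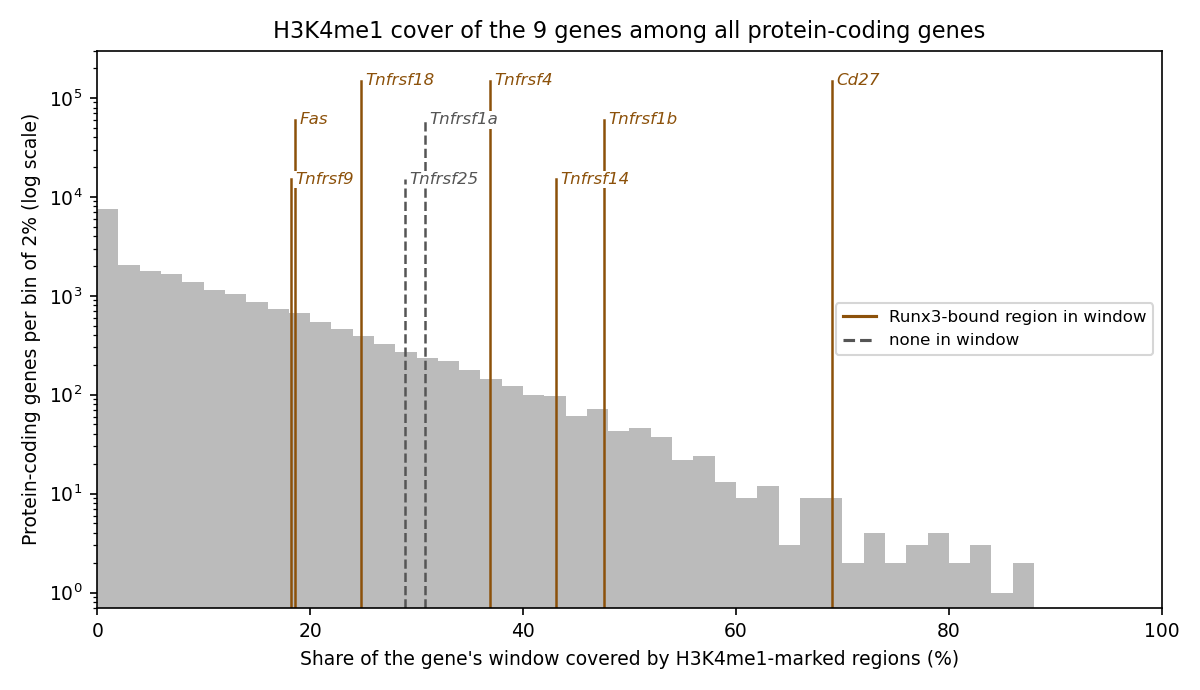
Histogram of protein-coding genes by the share of the window covered by H3K4me1-marked regions (x axis, %), with the number of genes in bins of 2% on a log scale (y axis). Vertical lines place the 9 genes, solid brown with and dashed grey without a Runx3-bound region. The lines run from 18.2% at Tnfrsf9 to 69.0% at Cd27, and the lines of the unbound Tnfrsf25 and Tnfrsf1a fall among those of the bound genes.

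Cd27 had the highest cover, 69.0% of its window, a level that 0.116% of all genes reached. Its marked regions of 8360 and 8204 bp were the widest at any of the 9 genes. The region of 8204 bp began 0.296 kb upstream of the TSS and ran on to 8.50 kb upstream, across the second Runx3-bound region. The region of 8360 bp spanned 12.7 to 21.1 kb downstream of the TSS and held the third. Vamp1 transcripts are annotated at the midpoints of all 3 Runx3-bound regions, the promoter region included, and the lists alone do not assign binding or a mark to 1 of 2 overlapping genes.

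Tnfrsf1b followed with 47.6% and Tnfrsf14 with 43.1%, levels reached by 1.18 and 1.93% of all genes. The body of Tnfrsf1b was covered to 65.7%, with 1 region of 5722 bp around its Runx3-bound intron site. At Tnfrsf14 the cover of the body was 68.5%, and a chain of 4 marked regions from 16.1 to 4.48 kb upstream of the TSS surrounded the Runx3-bound region, which lay in the widest of them (4445 bp).

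Tnfrsf4 and Tnfrsf18 shared 4 of their marked regions but differed within the gene. No base of the Tnfrsf4 body was marked, and the nearest marked bases lay 8555 bp upstream and 7128 bp downstream of its TSS. The body of Tnfrsf18 was marked to 89.6%, by a region of 3205 bp that ran from 0.757 kb upstream to 2.45 kb downstream of its TSS. Window cover was 36.9% for Tnfrsf4 and 24.8% for Tnfrsf18, so the cover at Tnfrsf4 came entirely from its flanks.

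The unbound Tnfrsf1a and Tnfrsf25 had 30.8 and 28.9% cover, above that of the bound Tnfrsf18, Tnfrsf9 and Fas. Tnfrsf1a had 12 marked regions, among them 2292 bp across the TSS and 4345 bp within the gene. Tnfrsf25 had 11, with 717 bp across the TSS and 3082 bp past the end of the gene. Fas and Tnfrsf9 had the lowest cover of the 9, with 18.6 and 18.2%, and still 17.7 and 18.3% of all genes had at least as much. The widest of the 14 marked regions of Tnfrsf9, 1613 bp, was narrower than the widest at any other of the 9 genes.

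Since Runx3 was found mostly in marked chromatin, the count of bound genes was also read against genes above a minimum of H3K4me1. Of the 4083 protein-coding genes whose cover was at least that of Tnfrsf9, 49.0% had a Runx3-bound region in the window. The 77.8% of the 9 genes had an interval whose lower bound, 45.3%, lies below that share. The interval takes the 9 genes as independent, although Tnfrsf4 and Tnfrsf18 share a region, and the minimum was set by the genes themselves, so the shares are given side by side with no test. Most of those genes had less of the mark than the median receptor, since 6.15% of all genes reached 30.8% cover, so the amount of the mark was not matched.

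The start sites showed 3 arrangements. A coding TSS lay inside an H3K4me1-marked region in 7 of 9 genes (interval 45.3 to 93.7%), against 23.7% of all protein-coding genes. For Tnfrsf9 this was an alternative start, and the start of its gene record lay in a gap, 224 bp from the mark upstream and 152 bp from the mark downstream. Fas was the 1 gene whose TSS was unmarked with marked regions within 2 kb on both sides, 254 bp upstream and 537 bp downstream, an arrangement found in 26.3% of all genes. Tnfrsf4 had neither. At Cd27 the marked region over the TSS was 923 bp wide and reached 0.168 kb upstream.

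All 10 Runx3-bound regions overlapped an H3K4me1-marked region by at least 1 bp (interval 72.2 to 100%), against 78.8% of all Runx3-bound regions. All 10 also had their midpoint inside one, against 66.1%. The first share lies within the interval of the 10 regions and the second below it. In 7 regions the whole width was covered. The other 3 (interval 10.8 to 60.3%) spanned a gap between 2 marked regions, whereas 10.5% of all Runx3-bound regions overlapped at least 2. That share is also taken over Runx3-bound regions that overlapped no H3K4me1, of which these genes had none. The gap was 298 bp at the upstream Tnfrsf4 region (69.0% covered), 127 bp at the Cd27 promoter (86.8% covered) and 114 bp in the Fas intron (91.0% covered). The 12 marked regions at these genes that overlapped Runx3 had a median width of 1482.5 bp and the 74 that did not a median of 1243 bp, while Runx3-bound regions themselves had a median of 898.5 bp against 851 bp in the whole list.

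Distance to the nearest start of any annotated transcript was below 1 kb for 4 of 10 regions (interval 16.8 to 68.7%), against 20.7% of all Runx3-bound regions. It was 1 to 5 kb for 2 regions, against 15.4%, and 5 to 50 kb for 4 regions, against 45.2%. No region lay farther away, which the rule of assignment had made nearly impossible. The rule kept regions in or within 20 kb of gene bodies of at most 37112 bp, so short distances were favoured in advance. The list of all Runx3-bound regions has no such limit, so the shares are not a like comparison. Of the 4 near a start, the Cd27 promoter and the Tnfrsf9 intron were near a coding start, while the region between Tnfrsf4 and Tnfrsf18 and the one downstream of Tnfrsf9 were near non-coding starts.

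A RUNX motif was present in all 10 regions over their whole width, against 88.8% of all Runx3-bound regions. In the 200 bp around the midpoint it was present in 8 of 10 (interval 49.0 to 94.3%), against 66.0%, and at least 2 copies were present in 5 of 10, against 28.9%. These shares did not differ from those of the whole list beyond the intervals. The share of sequences without Runx3 binding that hold such a short match was not measured. The regions without a central match were the upstream Cd27 region and the Fas intron, whose matches, TGCGGT and TGTGGC, lay 124 and 142 bp from the midpoint, the second in the gap of the mark. Of the 15 central matches 12 were TGTGGT, in 7 of 10 regions against 46.6% of all central windows, and 3 were TGTGGC, in 3 of 10 against 22.4%. The variants TGCGGT and TGCGGC were not found there and occurred in 10.7 and 5.43% of all. The Tnfrsf1b, Tnfrsf9 intron and Tnfrsf4 to Tnfrsf18 sequences printed above show matches in series. In the first, 3 matches spread over the window, and in each of the others a pair began 10 and 11 bp apart, in opposite orientation at Tnfrsf9 and in the same orientation between Tnfrsf4 and Tnfrsf18.

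**Figure D3:**
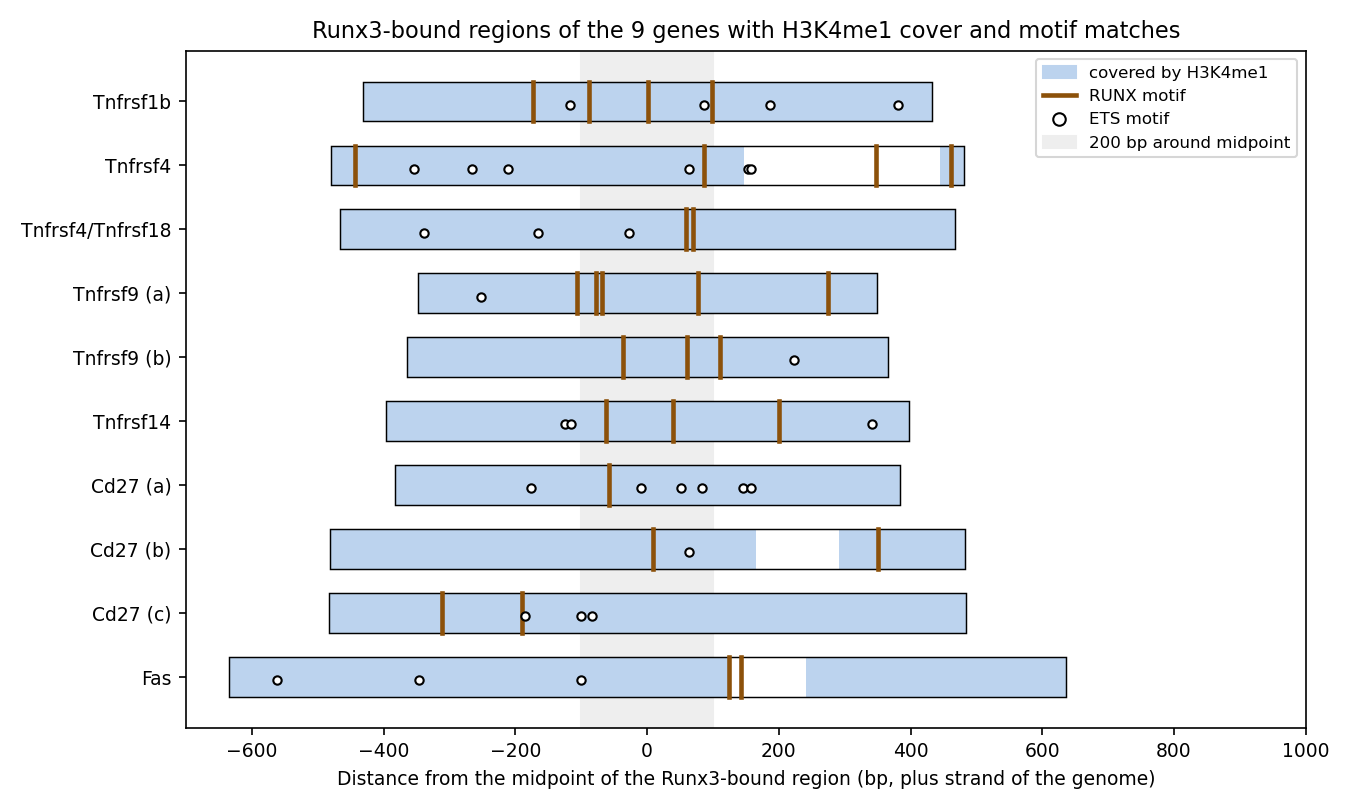
The 10 Runx3-bound regions drawn to scale around their midpoint (x axis, bp, plus strand). Blue fill marks the bases covered by H3K4me1, white the bases without it, brown lines RUNX motif matches, open circles ETS motif matches and the grey band the central 200 bp. The letters a to c number the regions of a gene by position on the chromosome. White gaps show in the upstream Tnfrsf4, Cd27 promoter and Fas regions, and 8 regions have a brown line in the grey band.

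An ETS motif (AGGAAA or AGGAAG or CGGAAA or CGGAAG, either strand), the core bound by Ets factors that often act with RUNX proteins, lay in the central 200 bp of 6 of 10 regions, against 63.8% of all. The closest RUNX and ETS matches began 11 bp apart in the Tnfrsf1b intron and 24 bp apart upstream of Tnfrsf4. The 3 regions of Tnfrsf9 and Tnfrsf14 had RUNX matches without an ETS match there. The AP-1 motif TGACTCA, the site of Fos and Jun dimers, was in none of the 10 central windows, against 4.58% of all, and lay once outside them, in the Tnfrsf9 intron region. The T-box motif GGTGTGA was in 1 of 10 central windows, downstream of Tnfrsf9, against 3.40%, and lay outside them in the Tnfrsf9 intron region and in the region between Tnfrsf4 and Tnfrsf18. A match of letters is not evidence of occupancy, and counts of 0 or 1 in 10 windows allow a wide range of shares.

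The rest of the pathway gave the following picture. Of 19 other receptors of the superfamily, 4 (21.1%) had a Runx3-bound region, close to the 19.8% of all genes. These were Tnfrsf13c (the BAFF receptor of B cells, 45.2% cover), Relt (37.6%), Tnfrsf10b (21.5%) and Tnfrsf12a (16.7%). The 3 BAFF and APRIL receptors of B cells, grouped after their values were seen, had a median cover of 36.4%, above that of the 9 genes. The median cover of the 19 was 10.1%, and Tnfrsf11b and Eda2r had no marked region. Since the 9 genes had been chosen as the T-cell members of the family, a higher value for them than for the rest was not tested.

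Of 18 ligands 7 (38.9%) had a Runx3-bound region, beside 19.8% of all genes, and the median cover was 12.0%. Fasl, the ligand of Fas and a killing effector of CD8-TC, had 46.2% cover and 4 such regions, more regions than any other gene in the pathway lists. Lta (86.0%) and Tnf (83.6%) followed with 1 each. Together with Ltb (79.5%) these neighbours on chromosome 17 share 1 Runx3-bound region, which thus accounts for 3 of the 7 bound ligands. The ligands Tnfsf8, Tnfsf10 (TRAIL, for Tnfrsf10b) and Cd40lg had 1 region each. Cd70 (for Cd27), Tnfsf4 (for OX40), Tnfsf9 (for CD137), Tnfsf14 (for HVEM) and Tnfsf18 (for GITR), each a ligand of another bound member, had no Runx3-bound region. They need not be the only ligands of these receptors.

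Of 15 signalling genes 8 (53.3%) had a Runx3-bound region, beside 19.8% of all genes, with a median cover of 19.3%. The neighbours Birc2 and Birc3 share 1 of these regions. Traf1, an adaptor of CD137 and TNF receptor 2, had 3 regions and 58.0% cover. Birc3, an inhibitor of apoptosis in the TRAF complexes, had 2 regions and 35.3%, and Traf4 had 1 region and 34.9%. Tnfaip3, the ubiquitin-editing enzyme that damps NF-kB, had 1 region that overlapped no H3K4me1. Among the death domain adaptors and the caspase they recruit, grouped after their values were seen and not tested, Fadd, Tradd and Ripk1 had none and Casp8 had 1. Outside this group Traf3, Traf6, Cflar and Tank had none either.

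**Figure D4:**
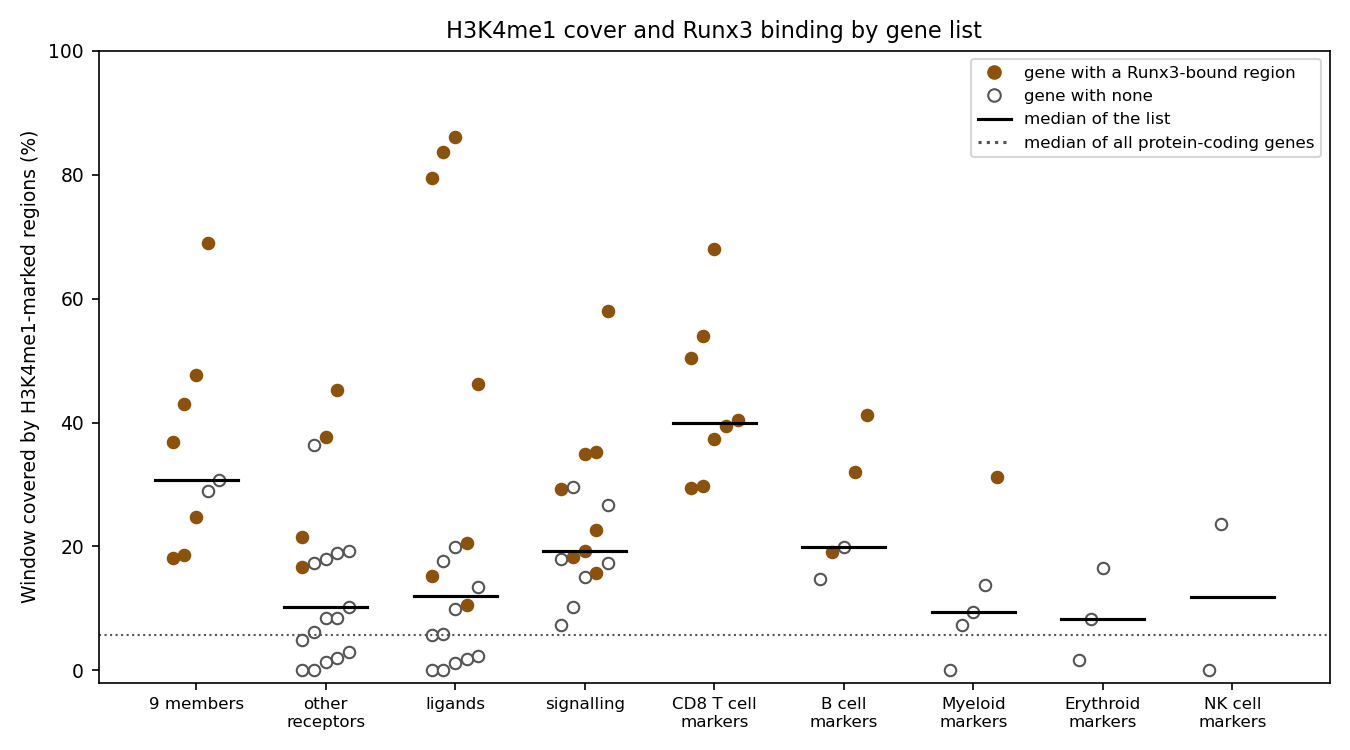
Share of the window covered by H3K4me1 (y axis, %) for each gene of the 9 receptors, the other pathway lists and the marker lists (x axis). Filled brown points have a Runx3-bound region, open points none, black bars are list medians and the dotted line is the median of all protein-coding genes. The 9 receptors have a median of 30.8%, between the signalling genes at 19.3% and the CD8-TC markers at 39.9%.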

How the data were processed

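ChIP-seq for Runx3, H3K4me1 and NIS was performed on splenic CD8-TC. The authors aligned reads of 40 to 42 bp to mm9 with ELAND, kept uniquely aligned reads, pooled both repeats per antibody and ran MACS 1.4 with NIS as control, scaling the larger data set down. CASAVA 1.6 and 1.7 are named in the submitters' processing notes. The deposited lists hold positions in base pairs and names only, with no score or count, so no test over samples was possible. NIS values were not analysed here. Starts were moved by 1 bp to 1-based positions. Positions were read with NCBIM37 and GENCODE M1, whose chromosome lengths held all regions.

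Midpoints were assigned to gene bodies with a margin of 20 kb, H3K4me1 cover was the percentage of window bases, and motifs were searched as exact words on both strands. All 9 genes and all their Runx3-bound regions are named, and in each pathway list up to 3 genes with the most Runx3-bound regions, ties by cover. Further genes named were chosen after their values were seen. The genes and lists were chosen with earlier results of these data known. Assignment and motif search were tested on simulated data. Python 3.11.15 with numpy 2.4.6, scipy 1.17.1 and matplotlib 3.10.9 was used. Alternatives were margins of 5 and 50 kb, any overlap, coding transcript span, merging within 1000 bp, a median width minimum, 50% cover, midpoint inside, coding or gene-record starts and the central 200 bp for motifs.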

Additional observations from a re-analysis of the deposited data

How the results depend on the processing

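No paired analysis was possible because the authors pooled the repeats before peak calling. Of 26 alternatives over 9 results, 17 left a count within 1.5 times its value or a share of regions within its interval, and any change in cover, which has no error, was listed as moved. The number of genes with a Runx3-bound region was 7, 5 with a margin of 5 kb, 8 with 50 kb and 5 with Runx3-bound regions at or above the median width of 851 bp, while the share of all protein-coding genes was 13.0% at 5 kb, 30.8% at 50 kb and 11.0% at the median width. With 5 kb Tnfrsf4 and Tnfrsf14 lost their binding, and with 50 kb Tnfrsf25 gained it. With the median width minimum Tnfrsf9 and Tnfrsf14 lost theirs. Values that moved were the 10 Runx3-bound regions (6 with 5 kb, 6 at median width), the 86 H3K4me1-marked regions (49 with 5 kb, 46 merged within 1000 bp, 55 at median width) and the H3K4me1 cover of 33.9% (42.4% with 5 kb, 21.9% with 50 kb, 29.2% at median width). The 3 Runx3-bound regions over a gap fell to 0 after merging, by construction, an alternative chosen after seeing the data. Depth per region, peak height and repeats were not in the lists, so weak and strong binding could not be told apart.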
